A study of Canis lupus familiaris with 9 samples.

Results

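Genes of sterol and fatty acid metabolism were followed in 9 dog RNA libraries: 41 genes were named for 6 routes, and 37 of them were found by symbol among the 28008 features of the tables. The routes are sterol synthesis (13 genes found of 16 named), sterol sensing (5 of 5), oxysterol handling and esterification (5 of 5), fatty acid synthesis (4 of 4), fatty acid elongation and desaturation (5 of 5) and fatty acid oxidation (5 of 6). HMGCS1, IDI1, EBP and HADHB were not analysed here. The genes were chosen by function and not by their level, but with earlier results of these data known. The tested groups were CD4+ peripheral T cell lymphoma (PTCL), a cancer of mature T cells, in 3 Boxers aged 6 (castrated male), 8 (spayed female) and 6 years (castrated male), and in 3 dogs of other breeds. These were a Cavalier King Charles Spaniel of 3 years and a Rhodesian Ridgeback of 4 years, both spayed females, and a castrated male Collie of 11 years. The controls were 3 samples of CD4+ T cells sorted from healthy intact female hounds of 1 year. Disease therefore cannot be told apart from breed, age, sex, neutering or sorting in these groups, because the labels mention a sort for the controls and none for the lymphomas. Separate dogs are not stated for samples of like description. The p-values then reflect only how much these samples vary, which may be technical.

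Animal cells make cholesterol from acetyl-CoA by the mevalonate pathway, and the transcription factors SREBF1 and SREBF2 raise its genes when membrane sterol runs low. SCAP escorts these factors out of the endoplasmic reticulum, and INSIG1 and INSIG2 hold SCAP back when sterol is plentiful. Oxysterols, which are oxidised forms of cholesterol, act in the opposite sense through the liver X receptors NR1H2 and NR1H3. Activated T cells depend on sterol and fatty acid synthesis to build membranes for division, whereas resting T cells burn fatty acids in mitochondria.

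Values are normalised reads, that is, counts of reads that the authors scaled by a single factor for each library. The libraries held 11710623 to 18488468 reads. The values carry no correction for gene length, so levels are compared between libraries and not between genes. Log2 fold changes were taken on log2(value + 1) with limma, which tested 15977 genes, and a gene was called at an adjusted p (Benjamini-Hochberg over all genes tested) under 0.05. Of 8 T cell genes, CD3G was called higher in lymphomas and none lower, and CD3E, a subunit of the T cell receptor complex, had 13794 to 22222 reads in lymphomas and 19718 to 21357 in controls. CD5 and CD6, surface receptors of T cells, lay below the controls in all 6 lymphomas, at 265 to 4320 reads (CD5) and 179 to 4336 (CD6) in lymphomas, against 10272 to 10649 and 6849 to 8636 in controls. Both were lowest in Boxer lymphoma 2 and were called lower in Boxer lymphomas against controls (limma adjusted p = 0.0338 and 0.0492). CD4 was not analysed here. Markers of other cells also differed: 10 of 11 tested macrophage genes, 7 of 11 fibroblast genes and 4 of 9 endothelial genes were higher in lymphomas. The counts were 4 of 4 for neutrophil, 4 of 7 for dendritic cell, 1 of 6 for cytotoxic and CD8 and 0 of 7 for B cell genes. None of those tested was lower, where 19.4% of all genes tested were higher and 15.7% lower. In other-breed lymphomas alone, 9 of 11 macrophage, 1 of 11 fibroblast and 1 of 9 endothelial genes were higher. In bulk RNA, fewer cells of a type and less RNA per cell cannot be told apart.

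Across the 6 routes, 10 of 36 tested members were higher in lymphomas and 4 were lower. Of all genes tested, 19.4% were higher and 15.7% were lower, 35% in either direction. The lymphoma and control values did not overlap for 14 of the 36 members, and for 35.8% of all genes tested. The median log2 fold change of the 36 members was 0.81, against 0.05 over all genes tested. Sterol synthesis and fatty acid synthesis held 7 of the 10 higher members, and every lower member lay in sensing, oxysterol handling or oxidation. ELOVL6 was not tested because too few libraries reached 10 normalised reads. The calls of 6 members (FDPS, FADS1, ELOVL5, NR1H2, NR1H3 and CPT2) ended in at least 1 of the fits that left out a single library, and 9 of the 14 ended with age as a covariate, leaving DHCR7, ACLY, FASN, SULT2B1 and NR1H2. SULT2B1 could not be tested without a control, since only 2 libraries then reached the minimum.

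In sterol synthesis, 5 of 13 members were higher in lymphomas, 0 were lower and 8 were not called, with a median log2 fold change of 0.98. DHCR7 (ENSCAFG00000010424), the reductase that makes cholesterol from 7-dehydrocholesterol in the last step of 1 branch of the pathway, had 743, 781 and 794 reads in Boxer lymphomas and 1567, 614 and 509 in other-breed lymphomas, against 56.0, 87.5 and 68.5 in controls. All 6 lymphomas lay far above the controls, and other-breed lymphoma 1 lay highest. The means were 835 ± 375 in lymphomas (SD, n = 6) and 70.7 ± 15.9 in controls (SD, n = 3). The log2 fold change with its SE was 3.47 ± 0.32 (limma adjusted p = 7.49e-05), and errors after ± on later fold changes are SEs too. This call held in all 21 alternative settings.

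NSDHL, which removes a carbon from the sterol ring during demethylation, had 438, 323 and 332 reads in Boxer lymphomas and 260.1, 136 and 335 in other-breed lymphomas, against 116, 85.0 and 98.2 in controls. SC5D, the desaturase that makes 7-dehydrocholesterol, had 988, 509 and 593 reads in Boxer lymphomas and 434, 452 and 560.4 in other-breed lymphomas, against 259, 277 and 205 in controls. MVK, the mevalonate kinase, had 775, 804 and 829 reads in Boxer lymphomas and 1009, 554 and 1065 in other-breed lymphomas, against 392, 428 and 430 in controls. For these 3 genes no lymphoma overlapped the controls. The log2 fold changes were 1.53 ± 0.34 for NSDHL (limma adjusted p = 0.00741), 1.20 ± 0.26 for SC5D (0.00635) and 0.98 ± 0.21 for MVK (0.00551). All 3 were called in each fit that left out a single library, and none was called with age as a covariate. FDPS, which makes farnesyl diphosphate, the branch point towards sterols and prenylated proteins, was higher by 0.96 ± 0.28 (limma adjusted p = 0.0247). Its values were 650 to 1846 reads in lymphomas and 515 to 709 in controls, and Boxer lymphoma 3 (650) lay among the controls. Leaving out control 1, 2 or 3 raised its adjusted p to 0.109, 0.0669 and 0.0579.

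**Figure D1:**
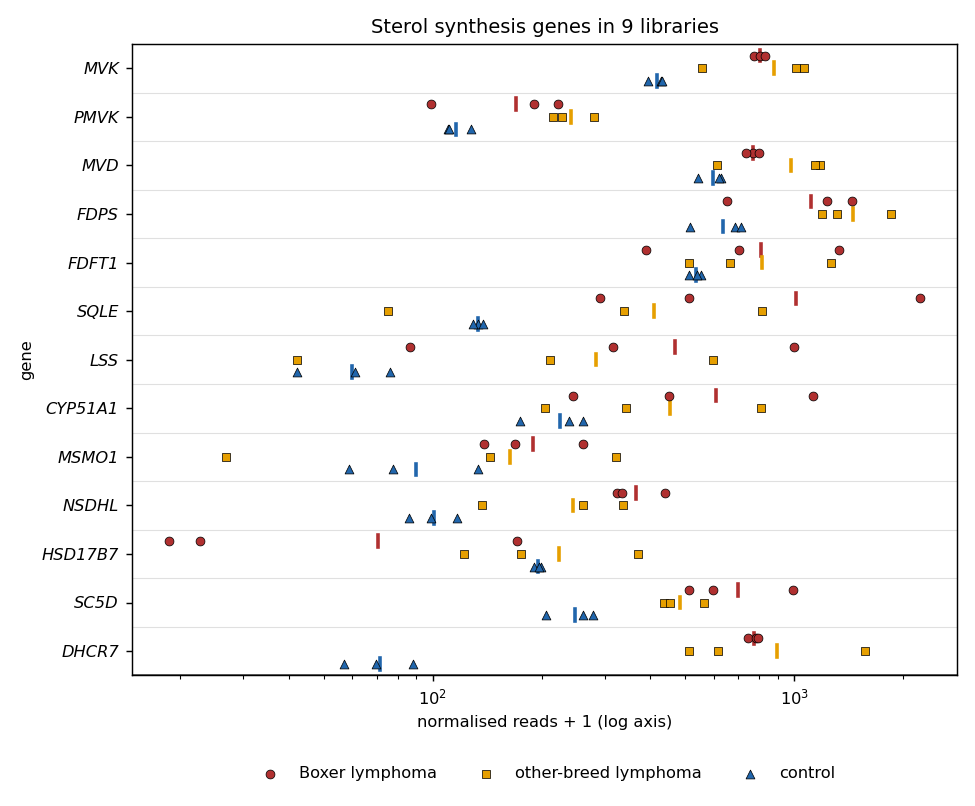
Normalised reads plus 1 (log axis) of the 13 sterol synthesis genes, with 1 point per library for 3 Boxer lymphomas, 3 other-breed lymphomas and 3 controls; the vertical bar is the group mean. DHCR7 separates all lymphomas from controls, whereas SQLE and LSS run from 74.2 to 2222 and from 41.2 to 999 reads among the lymphomas.

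The middle of the pathway was uneven among the lymphomas. SQLE, the squalene epoxidase, had 2222, 509 and 288 reads in Boxer lymphomas and 74.2, 337 and 811 in other-breed lymphomas, against 132, 128 and 137 in controls. Of the 6 lymphomas, 5 lay above all controls and other-breed lymphoma 1 lay below them. The log2 fold change was 1.70 ± 0.81 (limma adjusted p = 0.126), and without other-breed lymphoma 1 it was 2.21 (adjusted p = 0.0159). LSS, which closes squalene epoxide into lanosterol, had 999, 314 and 85.4 reads in Boxer lymphomas and 41.2, 211 and 594 in other-breed lymphomas, against 60.1, 41.3 and 75.0 in controls (1.98 ± 0.87, limma adjusted p = 0.101, 0.0208 without other-breed lymphoma 1). MSMO1, a sterol C4-methyl oxidase, ran from 25.9 to 319 reads in lymphomas and from 57.8 to 132 in controls (0.72 ± 0.68, limma adjusted p = 0.431). The 25.9 again came from other-breed lymphoma 1, and without it the adjusted p was 0.0396. Other-breed lymphoma 1 was the lowest library for SQLE, LSS and MSMO1, so leaving it out raises their fold changes by construction.

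CYP51A1, the lanosterol demethylase, had 203 to 1121 reads in lymphomas and 173 to 259 in controls (0.98 ± 0.51, limma adjusted p = 0.151). FDFT1, the squalene synthase, had 387 to 1329 reads in lymphomas and 510 to 550 in controls (0.46 ± 0.37, adjusted p = 0.347). For both genes Boxer lymphoma 1 and other-breed lymphoma 3 were the 2 highest libraries. PMVK and MVD, which complete the conversion of mevalonate, had 97.9 to 278 reads (PMVK) and 612 to 1174 (MVD) in lymphomas, against 109 to 127 and 542 to 627 in controls. Neither was called (0.76 ± 0.32 and 0.51 ± 0.22, limma adjusted p = 0.0926 and 0.0981).

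HSD17B7, the ketoreductase of C4 demethylation, was the single one of the 13 sterol synthesis members with a negative fold change. It had 169.9, 21.8 and 17.7 reads in Boxer lymphomas and 121, 175 and 369 in other-breed lymphomas, against 198, 189.9 and 195 in controls. Boxer lymphomas 2 and 3 lay far below the remaining 7 libraries, and other-breed lymphoma 3 lay above all controls. The log2 fold change was -1.10 ± 0.88 (limma adjusted p = 0.351).

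The enzymes outside the named members gave a mixed count. Of 8 other sterol synthesis genes, 4 were higher in lymphomas and 2 were lower. ACAT2, the cytosolic thiolase that starts the pathway, was higher by 1.63 ± 0.18 (limma adjusted p = 2.07e-04) and LBR, a sterol C14 reductase of the nuclear envelope, by 0.64 ± 0.17. TM7SF2, the other C14 reductase, was lower (-1.75 ± 0.52, limma adjusted p = 0.0256), and FAXDC2 changed by -1.63 ± 0.50 (0.0279).

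In sterol sensing, INSIG2 alone of 5 members was called, and it was lower. INSIG2 (ENSCAFG00000030843) had 155, 174 and 152 reads in Boxer lymphomas and 186, 155 and 165 in other-breed lymphomas, against 339.9, 376 and 302 in controls. The 6 lymphomas lay close together and all lay below the controls. The log2 fold change was -1.04 ± 0.20 (limma adjusted p = 0.00317, and 0.0676 with age as a covariate). Its SD over the lymphomas was 0.11 on the log2 scale, and 0.995% of all genes tested had a smaller one.

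INSIG1, which like INSIG2 holds SCAP back, went the other way without a call. It had 669, 615 and 462 reads in Boxer lymphomas and 267, 450.3 and 1092 in other-breed lymphomas, against 300.3, 343 and 351 in controls (0.71 ± 0.36, limma adjusted p = 0.149). Other-breed lymphoma 1 was again the lowest library. SREBF1 had 1299.8, 420.0 and 452 reads in Boxer lymphomas and 479, 502 and 967 in other-breed lymphomas, against 268, 400.4 and 370.4 in controls (0.86 ± 0.37, limma adjusted p = 0.0941). SREBF2 had 2339 to 4605 reads in lymphomas and 1742 to 2411 in controls (0.61 ± 0.23, limma adjusted p = 0.0627). Boxer lymphoma 1 and other-breed lymphoma 3 were the highest libraries for both SREBF genes. SCAP had 725 to 1350.4 reads in lymphomas and 1162 to 1398 in controls (-0.30 ± 0.24, limma adjusted p = 0.34).

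**Figure D2:**
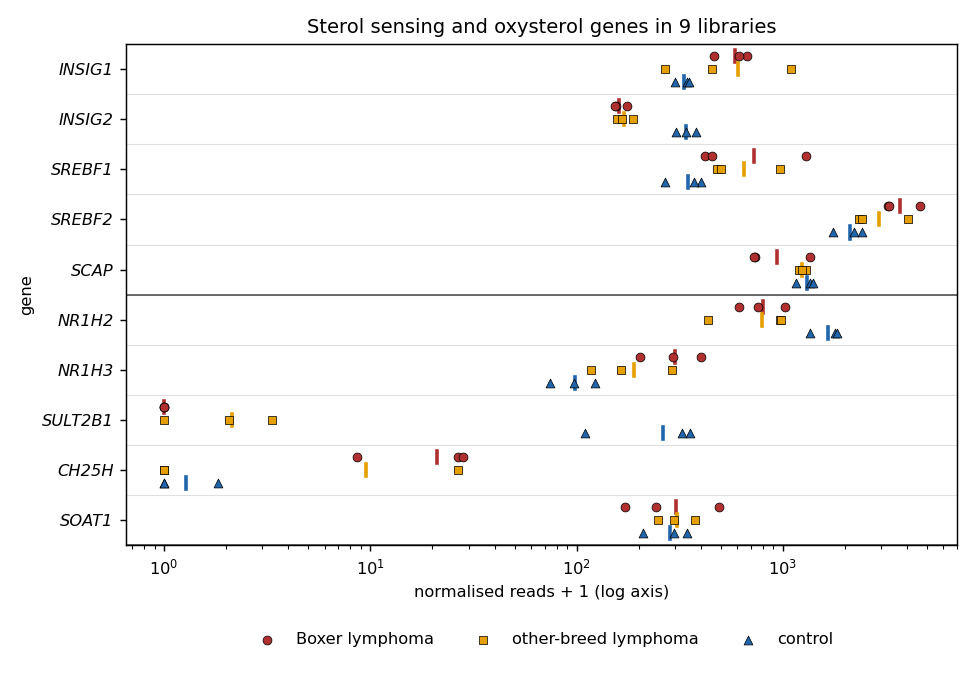
Normalised reads plus 1 (log axis) of 5 sterol sensing genes (upper block) and 5 oxysterol genes (lower block), with 1 point per library and the group mean as a vertical bar. INSIG2, NR1H2 and SULT2B1 lie below the controls in all 6 lymphomas, and CH25H lies at 0 in other-breed lymphomas 1 and 2.

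Oxysterol handling held the largest difference of any member. SULT2B1 (ENSCAFG00000003981), which sulfates cholesterol and oxysterols and so takes oxysterols away from the liver X receptors, had 0, 0 and 0 reads in Boxer lymphomas and 2.35, 0 and 1.06 in other-breed lymphomas, against 109, 323 and 352 in controls. No lymphoma came near a control, although the controls themselves spanned a 3.22-fold range. Over pooled libraries, the lymphomas held 3 reads, all in the other-breed group, and the controls 851. At equal library scale the ratio of controls to other-breed lymphomas was 287 (exact 95% interval 97.9 to 1395, counting error only). In Boxer lymphomas, with no read, it was at least 299.5-fold lower (from 3 reads over the group). The fitted log2 change was -7.40 ± 0.68 (limma adjusted p = 6.81e-05), a value that rests on the pseudocount of 1 because most lymphomas had no read.

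The 2 liver X receptors differed in direction. NR1H2, the ubiquitous form, had 613, 1018 and 760.1 reads in Boxer lymphomas and 971, 433 and 983 in other-breed lymphomas, against 1347, 1792 and 1834 in controls. It was lower in all 6 lymphomas, by a log2 fold change of -1.11 ± 0.28 (limma adjusted p = 0.0119, and 0.0585 and 0.0579 without control 2 or 3). NR1H3, the form of macrophages, liver and fat, had 402, 202 and 292 reads in Boxer lymphomas and 164, 116 and 289 in other-breed lymphomas, against 73.7, 96.6 and 122 in controls. It was higher by 1.23 ± 0.39 (limma adjusted p = 0.0329), other-breed lymphoma 2 overlapped the controls, and the call held in 4 of the 9 fits without a single library.

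CH25H, the cholesterol 25-hydroxylase, had 7.65, 25.6 and 27.1 reads in Boxer lymphomas and 0, 0 and 25.5 in other-breed lymphomas, against 0, 0.826 and 0 in controls. It was detected in 4 lymphomas and listed at 0 in other-breed lymphomas 1 and 2. It was not called (2.61 ± 1.27, limma adjusted p = 0.134), and without those 2 lymphomas the log2 fold change was 4.06 (adjusted p = 0.00199). Those 2 lymphomas were the ones without a read, so leaving them out raises the fold change by construction. SOAT1, which esterifies cholesterol for storage, had 172 to 489 reads in lymphomas and 209.7 to 342 in controls (0.05 ± 0.32, limma adjusted p = 0.916).

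Markers of some other cell types, but not of all, were lower in the libraries with low NR1H3 and CH25H than in the other lymphomas. Other-breed lymphomas 1 and 2 had the lowest NR1H3 of the lymphomas and no CH25H reads. The 13 macrophage markers found summed to 6179 to 12914 reads in Boxer lymphomas and, in the order of their numbers, 937, 3494 and 21310 in the other-breed group, against 141 to 204 reads for controls. LYZ and APOE, which is also counted here as a liver X receptor target, carried most of these sums, and LYZ alone gave 16931 of the 21310 reads. Endothelial markers summed to 448 and 394 reads in other-breed lymphomas 1 and 2, against 1714 to 7080 in the 4 others, and the controls had 511 to 854. On mean centred log2 values, fibroblast markers were at -1.38 and -2.08 in those libraries and at 1.92 to 3.83 in the remaining lymphomas. Controls were at -3.37 to -2.23. The fibroblast sums were 3469 and 354 reads in those libraries and 3281 to 12648.5 in the remaining lymphomas. By this measure other-breed lymphoma 1 did not lie apart, with 3322 of its 3469 reads from THY1. Other lists did not follow this split. Neutrophil markers summed to 304, 320 and 412 reads in other-breed lymphomas by number, against 104 to 248 in Boxer lymphomas. Cytotoxic and CD8 markers summed to 1331, 437 and 359, against 149 to 253 in Boxer lymphomas and 125 to 263 in controls. CD8A alone gave 1089 of the 1331 reads. In the same order dendritic cell markers summed to 148, 576 and 592 reads and B cell markers to 6234, 458 and 2341. MS4A1 alone gave 5123 of the 6234 reads. Among the lymphomas with CH25H reads its order did not follow the macrophage sum, since Boxer lymphoma 1 had the lowest CH25H (7.65) with a sum of 12914. Of the defining macrophage markers VSIG4 was at 0 in all 3 controls. The part of these cells in the NR1H3 and CH25H values was not tested.

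Around these members, the oxysterol list (5 tested) had 2 genes higher and 1 lower. GPR183, the receptor for the oxysterol that CH25H and CYP7B1 make together, was lower (-3.28 ± 0.69, limma adjusted p = 0.00526), at 52.1 to 723 reads in lymphomas and 1217 to 1522 in controls. HSD3B7, the next enzyme of that route, was higher (3.21 ± 0.83, limma adjusted p = 0.0141). Its value in other-breed lymphoma 1 (16.5 reads) lay within the controls (0.926 to 24.6). SOAT2, with no read in the controls, was at least 12.1-fold higher over the pooled lymphomas (from 3 reads over the control group). It had 2.35 and 1.58 reads in other-breed lymphomas 1 and 2, against 9.35 to 25.0 in the other lymphomas. SOAT2 was tested only because lymphomas reached the minimum. Of 7 efflux and liver X receptor target genes, 3 were higher and 0 lower. These were APOE, an apolipoprotein that macrophages can secrete (6.68 ± 0.97, limma adjusted p = 8.06e-04), SMPDL3A (4.89 ± 1.30, 0.0156) and LPCAT3, a phospholipid remodelling enzyme (0.90 ± 0.22, 0.0108). SMPDL3A was at 27.1 reads in other-breed lymphoma 1 and at 19.0 to 28.7 in controls, against 311 to 3314 in the other lymphomas.

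For uptake and trafficking, 6 of 12 genes were higher and 2 lower. SCARB1, the receptor that takes cholesteryl ester from high-density lipoprotein, had 2021, 2034 and 1915 reads in Boxer lymphomas and 1764, 1238 and 2138 in other-breed lymphomas, against 330, 470 and 484 in controls (2.11 ± 0.21, limma adjusted p = 9.27e-05). NPC2, a lysosomal cholesterol carrier, was higher by 1.95 ± 0.35 and STARD4, a cytosolic sterol carrier, by 1.60 ± 0.31. MYLIP, a ligase that degrades lipoprotein receptors, was lower (-1.90 ± 0.31, limma adjusted p = 0.0016).

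In fatty acid synthesis, 2 of 4 members were higher in lymphomas and 0 were lower, with a median log2 fold change of 1.14. ACLY (ENSCAFG00000015818), which makes cytosolic acetyl-CoA from citrate and so feeds both sterol and fatty acid synthesis, had 3446, 3076 and 2525 reads in Boxer lymphomas and 2920, 3154 and 3675 in other-breed lymphomas, against 1187, 1099.7 and 1229 in controls. The 6 lymphomas were narrowly spread and all lay above the controls. The log2 fold change was 1.41 ± 0.14 (limma adjusted p = 1.19e-04). FASN, the fatty acid synthase, had 12279, 4075 and 6589.8 reads in Boxer lymphomas and 6182, 6199.9 and 6423 in other-breed lymphomas, against 1671, 2611 and 2470 in controls. No lymphoma overlapped a control, and the log2 fold change was 1.57 ± 0.29 (limma adjusted p = 0.00299). Both calls held in all 21 alternative settings.

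ACACA, the carboxylase that makes malonyl-CoA, had 2201, 775 and 1226 reads in Boxer lymphomas and 1245, 2027 and 1024 in other-breed lymphomas, against 846, 668 and 673 in controls (0.87 ± 0.31, limma adjusted p = 0.0514). SCD, the stearoyl-CoA desaturase, had 6338, 1119.6 and 4608 reads in Boxer lymphomas and 5153, 2993 and 3751 in other-breed lymphomas, against 3129.7, 2704 and 3141 in controls. Boxer lymphoma 2 lay below all controls for SCD and 4 lymphomas lay above them (0.24 ± 0.45, limma adjusted p = 0.704). Boxer lymphoma 2 also had the lowest FASN and ACACA of the lymphomas.

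**Figure D3:**
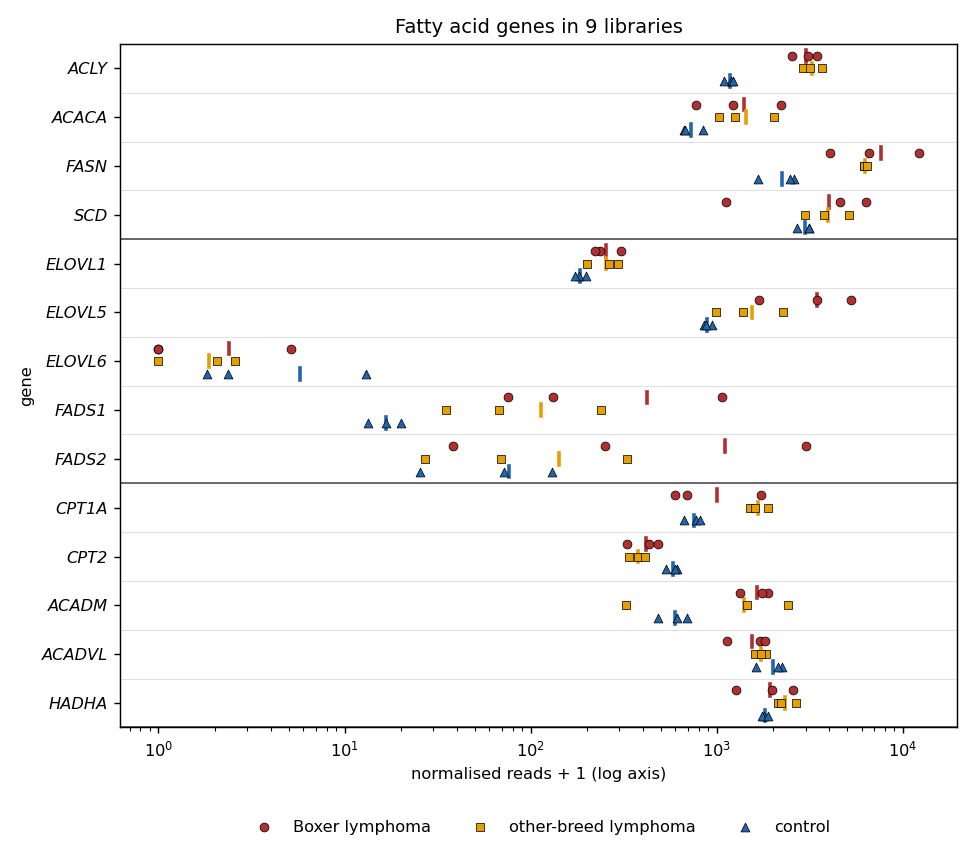
Normalised reads plus 1 (log axis) of genes of fatty acid synthesis (upper block), elongation and desaturation (middle block) and oxidation (lower block), with 1 point per library and the group mean as a vertical bar. ACLY and FASN separate lymphomas from controls, FADS1 and FADS2 are highest in Boxer lymphoma 1 (1063 and 3023 reads), and CPT2 lies below the controls in all 6 lymphomas.

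Elongation and desaturation showed the widest spread among lymphomas. FADS1, the delta-5 desaturase of polyunsaturated fatty acids, had 1063, 74.9 and 130.2 reads in Boxer lymphomas and 34.1, 66.2 and 238 in other-breed lymphomas, against 12.3, 19.0 and 15.7 in controls. All lymphomas lay above the controls and spanned a 31.1-fold range. The log2 fold change was 3.03 ± 0.90 (limma adjusted p = 0.0249), with adjusted p values of 0.0874, 0.0686 and 0.0755 without control 1, 2 or 3. FADS2, the delta-6 desaturase, had 3023, 248 and 37.5 reads in Boxer lymphomas and 25.9, 68.6 and 330.1 in other-breed lymphomas, against 24.6, 71.0 and 129.7 in controls. Only 3 lymphomas lay above all controls, and FADS2 was not called (1.38 ± 1.31, limma adjusted p = 0.432). Without Boxer lymphoma 1 the log2 fold changes were 2.44 for FADS1 (adjusted p = 0.0132) and 0.54 for FADS2 (adjusted p = 0.668).

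ELOVL5, an elongase of polyunsaturated chains, had 5252, 3464 and 1694 reads in Boxer lymphomas and 1388, 995 and 2278 in other-breed lymphomas, against 852, 944 and 871 in controls. It was higher by 1.27 ± 0.45 (limma adjusted p = 0.0482), and the call held in 3 of the 9 fits without a single library. ELOVL1, an elongase of very long saturated chains, had 200.3 to 306 reads in lymphomas and 173 to 196 in controls, with no overlap and no call (0.44 ± 0.21, limma adjusted p = 0.129). ELOVL6, which extends palmitate, had 7 reads over the lymphomas and 15 over the controls. Among 14 tested genes of the other synthesis and elongation enzymes, 4 were higher and 2 lower. HSD17B12, the ketoreductase of the elongation cycle, was higher by 2.25 ± 0.19 (limma adjusted p = 4.27e-05), TECR, its last reductase, by 1.06 ± 0.22, and HACD2, a dehydratase, by 1.44 ± 0.39. ELOVL4 changed by -4.84 ± 1.01 (limma adjusted p = 0.00523) and HACD3 by -1.02 ± 0.31. ELOVL4 was at 0 in other-breed lymphomas 1 and 2, so its fitted value depends on the pseudocount.

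In fatty acid oxidation, 1 of 5 members was called, and it was lower. CPT2, the carnitine palmitoyltransferase of the inner mitochondrial membrane, had 429.9, 329.9 and 482 reads in Boxer lymphomas and 374, 412 and 338 in other-breed lymphomas, against 535, 608 and 598 in controls (-0.57 ± 0.18, limma adjusted p = 0.0303). The call ended without control 1, 2 or 3 or other-breed lymphoma 3 (adjusted p = 0.0636, 0.123, 0.108 and 0.0523). CPT1A, its outer membrane counterpart and the entry step of oxidation, had 689.8, 598 and 1733 reads in Boxer lymphomas and 1884, 1504 and 1601 in other-breed lymphomas, against 663, 777 and 817 in controls (0.70 ± 0.38, limma adjusted p = 0.169). Boxer lymphoma 3 and all 3 other-breed lymphomas lay above all controls, and Boxer lymphoma 2 lay below them.

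ACADM, the medium-chain acyl-CoA dehydrogenase, had 1881, 1330.1 and 1742 reads in Boxer lymphomas and 324, 2415 and 1444 in other-breed lymphomas, against 695, 480.5 and 609 in controls (1.15 ± 0.52, limma adjusted p = 0.112). Without other-breed lymphoma 1, the library at 324, the log2 fold change was 1.55 (adjusted p = 0.001). That library was the lowest, so leaving it out raises the fold change by construction. ACADVL, the very-long-chain dehydrogenase, had 1133 to 1838 reads in lymphomas and 1617 to 2244 in controls (-0.29 ± 0.19, adjusted p = 0.245). HADHA, the alpha subunit of the trifunctional protein, had 1265 to 2679 reads in lymphomas and 1744 to 1886 in controls (0.20 ± 0.22, limma adjusted p = 0.497).

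Of 24 other oxidation genes tested, 12 were higher and 1 was lower, with a median log2 fold change of 0.78. ACAD9, an acyl-CoA dehydrogenase that also assembles respiratory complex I, was higher by 1.19 ± 0.15 (limma adjusted p = 3.28e-04), PPARGC1B, a coactivator of mitochondrial genes, by 2.07 ± 0.32 and ETFA, the electron carrier of the dehydrogenases, by 0.74 ± 0.12. The peroxisomal thiolase gene ACAA1 changed by -0.62 ± 0.22. Of 16 genes of fatty acid activation and storage, 3 were higher and 2 lower. The monoglyceride lipase gene MGLL (2.61 ± 0.36), DGAT2, which makes triglyceride (5.01 ± 0.62), and LIPE (0.82 ± 0.29) were higher, while PNPLA2, the first lipase of fat droplets, changed by -1.46 ± 0.22 and LPIN1, a phosphatidate phosphatase, by -1.02 ± 0.28. Markers of fat cells were near 0 for the defining genes: LEP was at 0 in all 9 libraries, ADIPOQ at 0 to 5.69 reads in lymphomas and 0 to 1.85 in controls, and PLIN1 at 0 to 8.24 in lymphomas and 0 to 0.926 in controls. The 10 fat cell markers found summed to 229 to 427 reads in lymphomas and 141 to 194 in controls, and 2 of the 5 tested (LPL and LIPE) were higher. LPL had no read in the controls and was tested only because lymphomas reached the minimum. Cell division markers summed to 18870 to 44169 reads in lymphomas and 2989 to 3740 in controls, with 10 of 10 tested genes higher, and their part in the synthesis genes was not tested.

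Within the lymphomas, Boxer lymphoma 1 had the highest value for 15 of all 37 members, and for 17.7% of all genes tested. These were 6 of 13 sterol synthesis members, 3 of 4 fatty acid synthesis members, 3 of 5 elongation and desaturation members and 3 others. Other-breed lymphoma 3 was highest for 4 of the 13 sterol synthesis members. The lowest values were divided among libraries. In sterol synthesis, Boxer lymphoma 3, other-breed lymphoma 1 and other-breed lymphoma 2 were each lowest for 4 of 13 members. Leaving out ties at 0, other-breed lymphoma 1 was lowest for 9 of all 37 members and other-breed lymphoma 2 for 8, where they were lowest for 18.2% and 19.5% of all genes tested. Other-breed lymphoma 1 also had the highest DHCR7, MVD and PMVK. SQLE, LSS and FADS2 ranked the 6 lymphomas in 1 identical order: Boxer lymphoma 1, other-breed lymphoma 3, Boxer lymphoma 2, other-breed lymphoma 2, Boxer lymphoma 3, other-breed lymphoma 1. These 3 genes were chosen after their values were seen, and 31 of the 15977 genes tested (0.194%) had this order. The median SD over the lymphomas was 0.578 on the log2 scale for the 36 tested members and 0.557 for all genes tested. It was 1.31 for the 4 tested elongation and desaturation members and 0.388 for the 5 of oxidation.

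**Figure D4:**
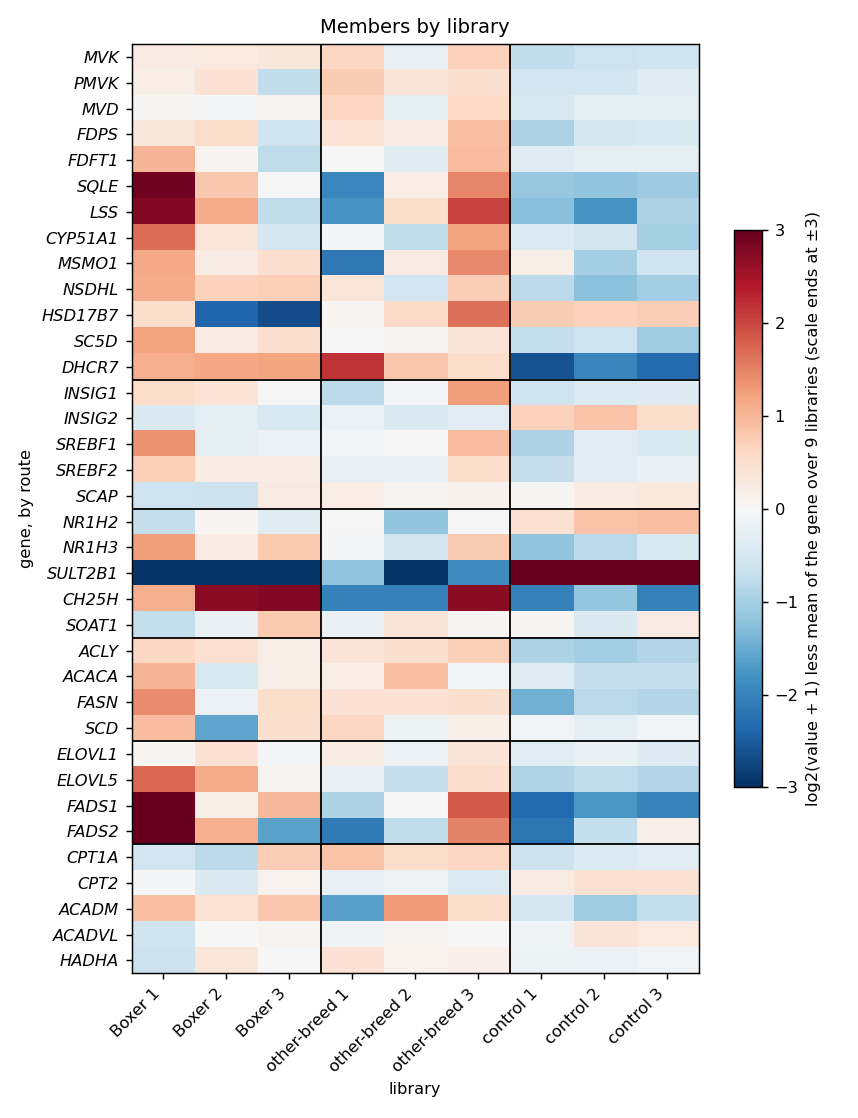
Centred log2(value + 1) of the 36 tested members (rows, by route) in 9 libraries (columns), as the difference from the mean of each gene over all libraries. SQLE, LSS, FADS1 and FADS2 are high in Boxer lymphoma 1 and other-breed lymphoma 3, while ACLY and DHCR7 are high in all 6 lymphomas.

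The 2 lymphoma groups were then each set against the same 3 controls, in 1 fit of 3 groups. In Boxer lymphomas 11 members were higher and 3 were lower, where 18.6% of all genes tested were higher and 14.4% lower (33% in either direction), and 24 members did not overlap the controls, against 54.1% of all genes. In other-breed lymphomas 8 were higher and 3 lower, where 13.8% were higher and 10.7% lower (24.5% in either direction), and 19 did not overlap, against 46.9%. DHCR7 was higher by 3.46 in Boxer lymphomas and by 3.48 in other-breed lymphomas, ACLY by 1.35 and 1.47, FASN by 1.64 and 1.50, and SULT2B1 was lower in both groups (fitted -7.86 and -6.93, which depend on the pseudocount and understate the folds from pooled reads). SREBF2, NR1H3, CH25H, ELOVL5 and FADS1 were called for Boxer lymphomas (0.79, 1.58, 3.93, 1.82 and 3.74) and not for other-breed lymphomas (0.43, 0.88, 1.29, 0.72 and 2.33). CH25H had 1 read over the controls and was tested only because lymphomas reached the minimum, so its fitted values depend on the pseudocount. FDPS and CPT1A were called for other-breed lymphomas (1.17 and 1.14) and not for Boxer lymphomas (0.74 and 0.25). These comparisons share their controls, and a call in 1 group alone does not show that the groups differ.

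**Figure D5:**
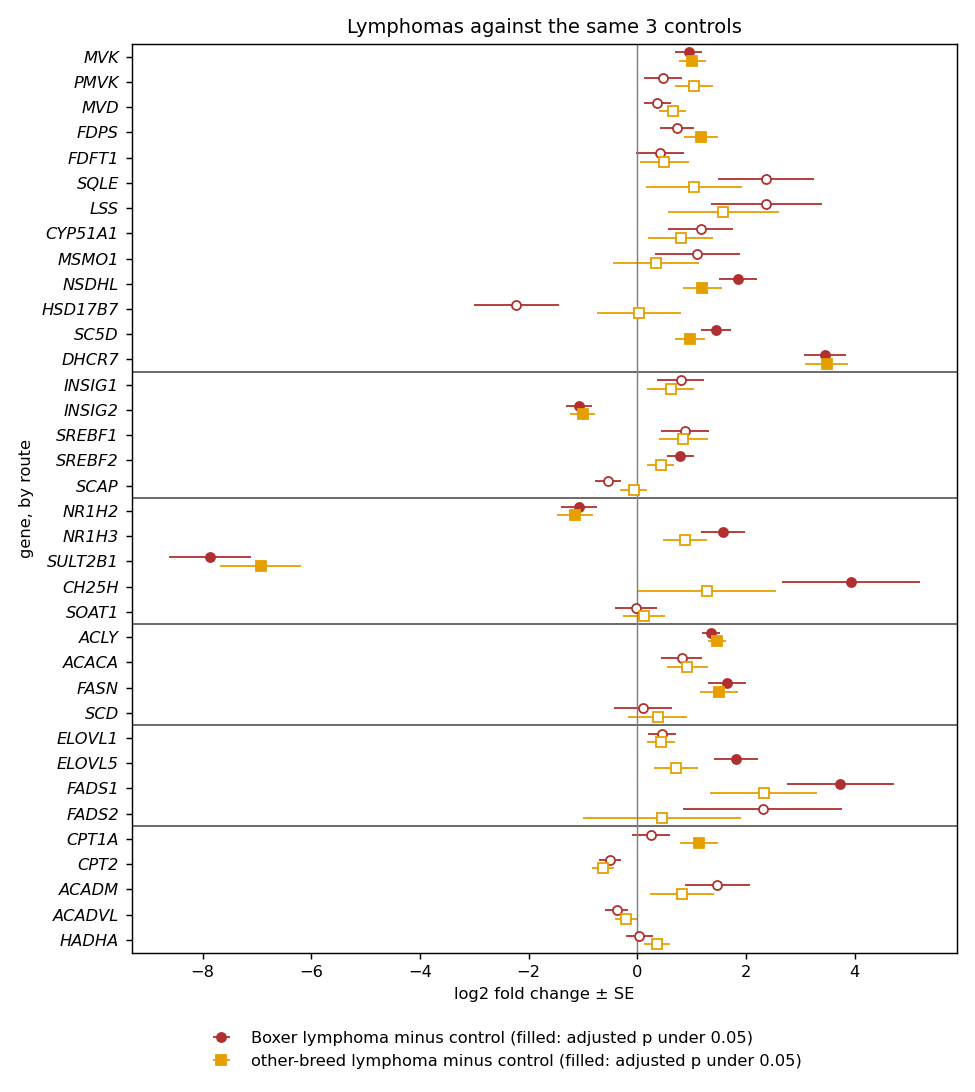
Log2 fold change with SE of 36 members for Boxer lymphoma minus control and other-breed lymphoma minus control, from 1 fit with shared controls; filled symbols mark an adjusted p under 0.05. DHCR7 (3.46 and 3.48) and ACLY (1.35 and 1.47) lie close together, and CH25H (3.93 and 1.29) and HSD17B7 (-2.23 and 0.03) lie apart.

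Set directly against other-breed lymphomas, Boxer lymphomas showed no called member. Of 35 tested members 0 were called and 1 had an unadjusted p under 0.05, and of all 15112 genes tested 0% were called by limma. DESeq2 called 44 genes higher and 58 lower, 0 of them members, and edgeR called 0. The members with the smallest p were HSD17B7 (-2.26 ± 0.93), ELOVL5 (1.10 ± 0.47) and CPT1A (-0.89 ± 0.40), each with a limma adjusted p of 0.881. For HSD17B7, Boxer lymphoma 1 (169.9) lay between other-breed lymphomas 1 (121) and 2 (175), so the groups overlapped. No tested member separated the Boxer lymphomas from the other-breed lymphomas without overlap, whereas 10.7% of all genes tested did.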

How the data were processed

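RNA of 6 lymphomas and 3 control samples was enriched for polyadenylated RNA and sequenced. No source used here says whether the libraries kept strand, and reads from a gene and its antisense partner cannot be told apart. The dog build CanFam3.1 and the tools TopHat2, DESeq2 and HTSeq are named in the submitters' processing notes. Each file deposited by the authors holds a signal per gene, read counts divided by 1 factor per library. All values were whole multiples of 1 read within 0.01 reads (100% in each library), and whole reads were recovered.

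Members and lists were chosen with earlier results of these data known. The main test was limma 3.58.1 with a mean-variance trend on log2(value + 1), over genes at 10 or more in at least 3 compared libraries, with Benjamini-Hochberg adjustment. Lymphomas were compared as 1 group (9 libraries), as 2 groups with shared controls, and with each other (6 libraries). The recovered reads gave alternatives by edgeR 4.0.16, whose quasi-likelihood test called 3100 genes higher and 2290 lower in lymphomas, and by DESeq2 1.42.0. Other alternatives were pseudocounts (0.5, 5), filters, scaling, covariates, a replicate block and omission of libraries. Values were given for up to 4 members per route with the smallest p, for SULT2B1, CH25H, SQLE, SCD, FASN and CPT1A whatever their result, and for further members by range or library. For other genes the rule took up to 3 per list and direction, and some of these are not reported here. The fits were tested on simulated data. Intervals and floors cover counting error only.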

Additional observations from a re-analysis of the deposited data

Results flagged for a closer look

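In 4 members, 1 lymphoma lay apart from the other 5 by a gap, as a share of the range on the log2 scale, above Dixon's 95% limit for 6 values. Chance alone gives such a gap in about 1 of 20 groups, and 36 members were examined. PMVK was at 97.9 reads in Boxer lymphoma 3, against 189 to 278 in the other lymphomas. MSMO1 was at 25.9 reads in other-breed lymphoma 1, against 137 to 319. ACADM was at 324 reads in other-breed lymphoma 1, against about 1330 to 2410. ACADVL was at about 1130 reads in Boxer lymphoma 1, against about 1590 to 1840.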

How the results depend on the processing

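In lymphomas against controls, the 14 calls of members were the same under edgeR, TMM scaling, scaling to total reads and pseudocounts of 0.5 and 5. DESeq2 called 19 members higher, and over all genes 4074 were higher, against 3092 in the main fit. With age as a covariate, which overlaps with disease in these dogs, 3 members were higher and 2 lower, and over all genes 1048 were higher and 885 lower. Several log2 fold changes then turned negative: FDFT1 (-0.22), SQLE (-0.010), LSS (-0.0027), CYP51A1 (-0.021), MSMO1 (-0.96), INSIG1 (-0.45), CH25H (-0.92) and FADS2 (-0.76). With sex as a covariate 7 members were higher and 4 lower, and over all genes 2273 were higher and 1803 lower. ELOVL5, FADS1 and NR1H3 were then no longer called (adjusted p = 0.191, 0.0961 and 0.142), and MSMO1 (-0.063) and SCD (-0.21) turned. Without other-breed lymphomas 1 and 2, 17 members were higher, and over all genes 3550 were higher. The cause was not tested.

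Leaving out 1 library at a time gave 6 to 16 members higher and 1 to 4 lower. The lowest counts came without a control and the highest without other-breed lymphoma 1. Over all genes, 1866 to 3291 were higher and 1194 to 2605 lower. SOAT1, never called, ran from -0.15 to 0.20. For Boxer lymphomas the ranges were 6 to 13 higher and 0 to 3 lower, and over all genes 1699 to 3126 and 1076 to 2509. For other-breed lymphomas they were 2 to 10 higher and 0 to 4 lower, and over all genes 1120 to 2278 and 569 to 1854. The smallest of these counts came without a control.

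A fit with the replicate number as a block called 9 members higher and 3 lower, and over all genes 2752 higher and 2158 lower. Same-numbered libraries correlated at -0.14 to 0.10 over 9 pairs, and differently numbered ones at -0.12 to 0.15. These values gave no sign of pairing, but with 3 libraries per group they cannot exclude a shared batch. Depth limits SULT2B1, CH25H and ELOVL6, which rest on few reads in 1 group or both.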
